A study of Homo sapiens with 12 samples.

Results

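The 37 genes described here make up an integrated stress response module, namely the transcription factor ATF4, the factors it works with, and the amino acid synthesis, transport and tRNA charging genes it is known to drive. Each gene on the list was read through the probe set that carries its symbol alone and has the highest mean log2(signal + 3) over 12 arrays. All 37 were among the 19775 genes named on the array, and 35 were among the 11548 genes that passed a filter on mean signal. The exceptions were NUPR1, a stress-induced chromatin protein that ranged from 3.8 to 14.8, and STC2, a secreted glycoprotein that ranged from 0.7 to 5.7.

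Total RNA came from Z-138 and Maver-1, established human mantle cell lymphoma lines, a B cell malignancy in which the kinase NIK (gene MAP3K14) can drive the alternative NF-kB pathway. The labels give Z-138 a nonsense change in TRAF2, and a TRAF3 deletion to Maver-1. Both lines carried a doxycycline-inducible hairpin, either a non-targeting control (NTC) or NIKsh#1 or NIKsh#2 against NIK, under puromycin selection, and spent 7 days in medium holding either 0 or 100 ng/ml of doxycycline. That gave 6 cultures with 2 arrays each, so a group of 1 line, construct type and dose held 1 NTC culture or 2 NIKsh cultures. The NIKsh replicates are different hairpins, the labels name no clones, and each genotype is represented by 1 line, so the p-values reflect no more than how these 6 cultures varied. In bulk RNA, a change in the share of responding cells and a change in RNA per cell cannot be told apart.

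ATF4 is controlled largely by translation. When a sensor kinase such as GCN2 (gene EIF2AK4), which detects uncharged tRNA, phosphorylates the initiation factor eIF2, general protein synthesis slows while ATF4 mRNA is translated more, and ATF4 then switches on genes that make, import and charge amino acids. ATF4 mRNA need not move for its targets to move, and the arrays measure mRNA only. Doxycycline is a tetracycline that can slow mitochondrial protein synthesis, and mitochondrial stress is a known input to ATF4; the NTC cultures received it too.

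ATF4 binds DNA with C/EBP partners at composite sites whose letters are TGATGNAA, or TTNCATCA on the other strand. This motif was sought on both strands of the RefSeq promoter windows of GRCh38.p14, which run from 250 bases before to 50 bases after a transcription start. Of the 37 members 31 had an entry, with 51 windows in all. The motif was in at least 1 window of 11 of the 31 members, or 35.5%, against 1217 of 27305 genes, or 4.46%. By window the shares were 11 of 51 (21.6%) and 1270 of 35116 (3.62%). With the free base fixed as C, a subset of the same motif, 6 members (19.4%) and 1.08% of all genes held it. The 11 were 4 amino acid transporters (SLC1A4, SLC3A2, SLC7A1, SLC1A5), 3 tRNA synthetases (AARS1, CARS1, GARS1), and ATF3, CEBPG, CHAC1 and ASNS. A match is a description of letters in this window and not evidence of binding.

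The 4 windows below are shown because ATF3, ASNS and CHAC1 were higher in untreated Z-138 and AARS1 was not, although all 4 hold the motif, given in capitals. They are ATF3 at chr1:212565192-212565247 (plus strand), ASNS at chr7:97872445-97872500 (minus strand), CHAC1 at chr15:40953238-40953293 (plus strand) and AARS1 at chr16:70289662-70289717 (minus strand), all before the most upstream start, with the first motif base at -191, -68, -209 and -187.
ATF3: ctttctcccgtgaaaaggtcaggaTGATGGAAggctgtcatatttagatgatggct
ASNS: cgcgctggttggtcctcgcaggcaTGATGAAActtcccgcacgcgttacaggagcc
CHAC1: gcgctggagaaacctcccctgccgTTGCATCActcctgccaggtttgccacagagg
AARS1: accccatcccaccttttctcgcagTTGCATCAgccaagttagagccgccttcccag

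Several facts about the arrays bear on every comparison. MAP3K14 changed with doxycycline by -0.42 on the log2 scale in the NIKsh cultures (SD 0.253, n = 4, from -0.681 to -0.075) and by 0.241 and 0.759 in the NTC cultures. The difference of -0.92 had an exact permutation p of 0.0667, two-sided, the smallest that 4 against 2 can give. The smallest MAP3K14 fall, at -0.075, belonged to hairpin #2 of Z-138, whose signal was 52.0 without and 49.2 with doxycycline. The largest, at -0.681, belonged to hairpin #1 of the same line. Hairpins #1 and #2 of Maver-1 lay between, at -0.437 and -0.488. By mRNA the Z-138 hairpins were thus unequal in knockdown, with 1 pair of arrays each and no test. The 3' to 5' ratio of ACTB, which rises as cDNA gets shorter, was 2.33 to 2.92 in untreated Z-138 and 3.66 to 6.88 in untreated Maver-1. With doxycycline it was 4.62 to 6.34 in Z-138 and 3.80 to 4.43 in Maver-1, so the order of the lines turned. The GAPDH ratio was 1.15 to 1.30 in untreated Z-138 and 1.54 to 2.39 in untreated Maver-1, but with doxycycline the lines overlapped, at 1.36 to 2.00 and 1.42 to 1.68. The summed signal of 6 markers, B cell genes and the mantle cell lymphoma gene CCND1, was 4839.7 to 7744.2 in Z-138 and 8049.8 to 9610.7 in Maver-1. CCND1 averaged 936.1 in Z-138 and 2825.3 in Maver-1, and MS4A1 3304.2 and 3712.3. PAX5 alone had the higher mean in Z-138, at 738.8 against 460.6. T and NK cell markers summed to 86.3 to 216.0 and 19.1 to 35.4, monocyte markers to at most 39.4 and 60.1, and fibroblast, epithelial and endothelial markers to 184.6 to 638.5 and 870.0 to 1210.7. Of the last list PECAM1 was the brightest, at 44.8 to 397.0 in Z-138 and 549.7 to 929.1 in Maver-1. EPCAM read 1.3 to 3.8 in Z-138 and 173.0 to 314.4 in Maver-1, and COL1A1 went the other way, at 76.1 to 244.2 and 20.6 to 46.9. In the T and NK list CD3G read 56.6 to 177.5 in Z-138 and 0.8 to 7.2 in Maver-1, while CD3D, CD3E and CD2 read 8.3 or less in both lines. The part of such transcripts in the results was not tested.

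The first comparison set untreated Z-138 against untreated Maver-1, 3 cultures each, to describe the resting level of the module in each line. Called higher in Z-138 were 3 of 5 measured stress effectors, 3 of 5 asparagine, proline and cysteine genes (ASNS, PYCR1, CTH) and 1 of 6 serine and one-carbon genes (PSPH). So were 2 of 6 transcription factors, 2 of 7 transporters and 2 of 6 tRNA charging and export genes, while ATF4 mRNA itself did not pass the test. In limma with Benjamini-Hochberg adjustment over 11548 genes, 13 of 35 members were higher in Z-138 (adjusted p under 0.05), where 25.5% of all genes were. Another 2 members were lower in Z-138, where 34.8% of all genes were; 1 of them, ALDH1L2, passed the signal filter only through Maver-1 and so had to differ. In either direction that is 15 of 35 members against 60.2% of all genes, and 17 of 35 against 64.3% at an unadjusted p under 0.05, so differing between these lines was common among genes and is not particular to the module. The median member difference was 0.17 (log2, Z-138 minus Maver-1) and that of all genes was -0.083. Signals of the 3 cultures of a line did not overlap those of the other line in 14 members, 12 higher in Z-138 (27.9% of all genes) and 2 higher in Maver-1 (37.9% of all genes), or 65.8% of all genes in either direction. GARS1 was the 1 called member whose signals overlapped.

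**Figure D1:**
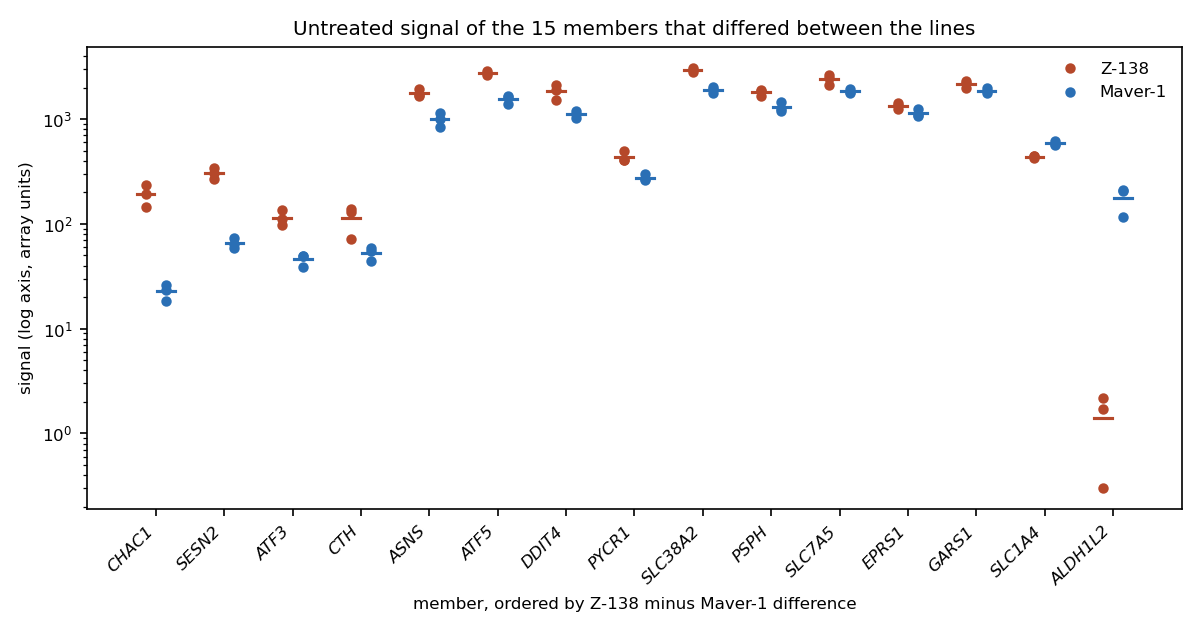
Signal without doxycycline (log axis, array units) of the 15 members that differed between the lines, ordered by the difference; each point is 1 culture and each bar the mean of 3. CHAC1 and SESN2 stand highest in Z-138 relative to Maver-1, and ALDH1L2, at 0.3 to 2.2 in Z-138, lies furthest the other way.

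Among the transcription factors, ATF4 read 2820.1, 2851.2 and 2639.1 in Z-138 (NTC, NIKsh#1, NIKsh#2) and 2921.3, 2889.4 and 2826.3 in Maver-1. These ranges overlapped, and the difference was -0.06 ± 0.06 (log2, SE; limma adjusted p = 0.409). ATF3, a stress-induced bZIP factor that ATF4 induces, read 136.9, 111.3 and 97.2 against 49.0, 49.4 and 39.2. Every Z-138 culture was above every Maver-1 culture, by 1.27 ± 0.18 or 2.41-fold (adjusted p = 4.06e-05). ATF5, a related factor that is also translated more when eIF2 is phosphorylated, read 2893.4, 2792.0 and 2632.9 against 1400.7, 1672.2 and 1648.2. It was 1.76-fold higher in Z-138 (0.82 ± 0.08, adjusted p = 1.01e-06). DDIT3, the pro-death factor CHOP, with a difference of 0.18, and the C/EBP partners CEBPB at 0.26 and CEBPG at -0.065 did not pass.

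Of the feedback and stress effectors 3 of 5 measured were higher in Z-138, where 25.5% of all genes were. CHAC1, an enzyme that degrades glutathione, read 236.7, 192.6 and 145.3 in Z-138 and 26.3, 23.2 and 18.5 in Maver-1. It was 7.50-fold higher in Z-138 on the log2(signal + 3) scale (2.91 ± 0.20, adjusted p = 5.56e-08). SESN2, a leucine sensor that restrains the growth kinase complex mTORC1, read 308.2, 340.6 and 266.5 against 73.5, 59.5 and 65.0. The lowest Z-138 culture was far above the highest Maver-1 culture, and the difference was 4.46-fold (2.16 ± 0.145, adjusted p = 4.02e-08). DDIT4, another brake on mTORC1, read 2107.5, 1915.4 and 1532.7 against 1122.5, 1020.4 and 1188.3, a 1.65-fold difference (0.73 ± 0.11, adjusted p = 5.78e-05). TRIB3, a pseudokinase that feeds back on ATF4, and PPP1R15A, which directs the phosphatase that reverses eIF2 phosphorylation, did not pass, with differences of -0.10 and 0.205.

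In serine and one-carbon synthesis 2 of 6 members passed, in opposite directions, where 60.2% of all genes passed. PHGDH, the first enzyme of serine synthesis, differed by 0.17 and PSAT1, the next, by 0.09, while the mitochondrial folate enzymes SHMT2 and MTHFD2 differed by 0.06 and 0.04, and none of the 4 passed by the chosen probe sets. With averaged probe sets SHMT2 and MTHFD2 passed. PSPH, which releases serine in the last step, read 1679.0, 1901.3 and 1862.4 against 1461.3, 1189.5 and 1251.3, 1.40-fold higher in Z-138 (0.48 ± 0.09, adjusted p = 0.000326). ALDH1L2, a mitochondrial formyl-folate dehydrogenase, went the other way. Its signal was 1.7, 0.3 and 2.2 in Z-138, below the filter of 12.55 set for a mean, and 205.9, 211.4 and 117.7 in Maver-1. It passed the filter only through Maver-1, so its call is no independent result and is given without a test. The size of the log2 difference followed the pseudocount, at -6.28, -5.34 and -3.44 with 1, 3 and 16 added to the signal.

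Enzymes for asparagine, proline and cysteine were higher in Z-138 in 3 of 5 cases, where 25.5% of all genes were. ASNS, asparagine synthetase, read 1662.1, 1945.5 and 1694.9 against 1153.9, 994.1 and 841.9, a 1.78-fold difference (0.83 ± 0.11, adjusted p = 1.81e-05). PYCR1, the mitochondrial enzyme of the last step of proline synthesis, read 412.3, 501.2 and 404.6 against 301.2, 262.6 and 267.4 (0.655 ± 0.12, adjusted p = 0.000335). CTH, which makes cysteine from cystathionine, read 138.4, 129.7 and 72.3 against 55.6, 59.0 and 44.6 (1.01 ± 0.23, adjusted p = 0.00182). All 3 were without overlap between the lines, whereas ALDH18A1, which starts proline synthesis, at -0.22 and CBS, the enzyme before CTH, at -0.06 did not pass.

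Among the transporters 2 of 7 were higher and 1 lower in Z-138, against 25.5% and 34.8% of all genes. SLC38A2, a sodium-coupled carrier of small neutral amino acids, read 2947.9, 3084.4 and 2848.4 against 2024.4, 1763.7 and 1937.4, or 1.55-fold higher in Z-138 (0.63 ± 0.07, adjusted p = 3.17e-06). SLC7A5, the leucine transporter LAT1, was 1.30-fold higher in Z-138 (0.38 ± 0.08, adjusted p = 0.00115). SLC1A4, a carrier of alanine, serine and cysteine, was lower in Z-138, at 429.4, 442.6 and 449.7 against 625.2, 582.3 and 566.5 (-0.42 ± 0.09, adjusted p = 0.00157). That call was not kept when the 5 probe sets of SLC1A4 were averaged, which gave 0.05 (adjusted p = 0.729). The probe sets disagreed in direction. A further probe set was also lower in Z-138, at -0.437, while the others were higher, at 0.648, 0.175 and 0.272. SLC7A1, SLC7A11, SLC3A2 and SLC1A5, which carry basic amino acids, cystine, the heavy chain partner of SLC7A5 and SLC7A11, and glutamine in that order, lay between -0.13 and 0.15 and did not pass. The synthetases EPRS1 at 0.24 ± 0.08 (adjusted p = 0.0247) and GARS1 at 0.20 ± 0.075 (adjusted p = 0.0332) were higher in Z-138, and AARS1, CARS1, WARS1 and the tRNA exporter XPOT did not pass. Of the 11 measured members with the promoter motif 5 passed, and of the 19 measured members with a promoter entry and no match 7 passed. Of all genes 60.2% passed.

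The same comparison was also made on the 6 arrays with doxycycline, a choice made after the data were seen. There the ACTB ratio had the opposite order and the GAPDH ratio overlapped between the lines. These arrays come from the same cultures, and the ratio changed together with doxycycline. Its part in the line differences was not tested. All 15 members kept their direction and 11 of them passed again (14 members and 4194 genes in all). CHAC1 was at 2.41 ± 0.38 (limma adjusted p = 0.00114), SESN2 at 1.97 ± 0.30 (adjusted p = 0.001), and ASNS at 0.95 ± 0.15 (adjusted p = 0.00104). Sizes moved both ways for other members. ATF5 was at 0.42 ± 0.12 (adjusted p = 0.0195), against 0.82 untreated. SLC7A5 was at 0.80 ± 0.165 (adjusted p = 0.00508), against 0.38 untreated. The members that no longer passed were PSPH, PYCR1, CTH and SLC1A4, with adjusted p from 0.0506 to 0.157, and SHMT2, ALDH18A1 and WARS1 passed there. Leaving out 1 culture at a time kept at least 13 of the 15 calls, GARS1 and EPRS1 being those lost. Averaging the probe sets of each gene on the untreated arrays kept 14 of the 15 calls. TRIB3, SHMT2, MTHFD2, SLC7A1, CARS1 and XPOT, which did not pass by the chosen probe sets, passed there. SLC7A1 was then at 0.592 (limma adjusted p = 0.00157).

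Of the kinases and eIF2 factors upstream of ATF4, 3 of 17 were higher and 7 of 17 lower in Z-138, with a median difference of -0.09. With 60.2% of all genes called, that share is near the background and is no result about this list. EIF2AK4, the GCN2 gene, read 100.3, 113.1 and 117.3 in Z-138 and 395.2, 368.8 and 345.0 in Maver-1, a difference of -1.72 ± 0.12 (adjusted p = 7.92e-08). IMPACT, a protein that restrains GCN2 by competing for its activator GCN1, read 0.3, 1.4 and 0.1 in Z-138 and 524.7, 461.8 and 545.4 in Maver-1. Its signal stayed at 5.2 or less on all 6 Z-138 arrays and at 461.8 or more on all 6 Maver-1 arrays. IMPACT passed the filter only through Maver-1 and so had to differ; its log2 difference is a description, at -8.40, -7.17 and -4.985 with pseudocounts of 1, 3 and 16. PPP1R15B, which holds the phosphatase on eIF2 in resting cells, was higher in Z-138 by 0.55 ± 0.07 (adjusted p = 2.65e-05), and EIF2S1, the phosphorylated subunit of eIF2, was lower by the chosen probe set at -0.34 ± 0.065 (adjusted p = 0.000498). With averaged probe sets EIF2S1 was at 0.08 (adjusted p = 0.416).

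**Figure D2:**
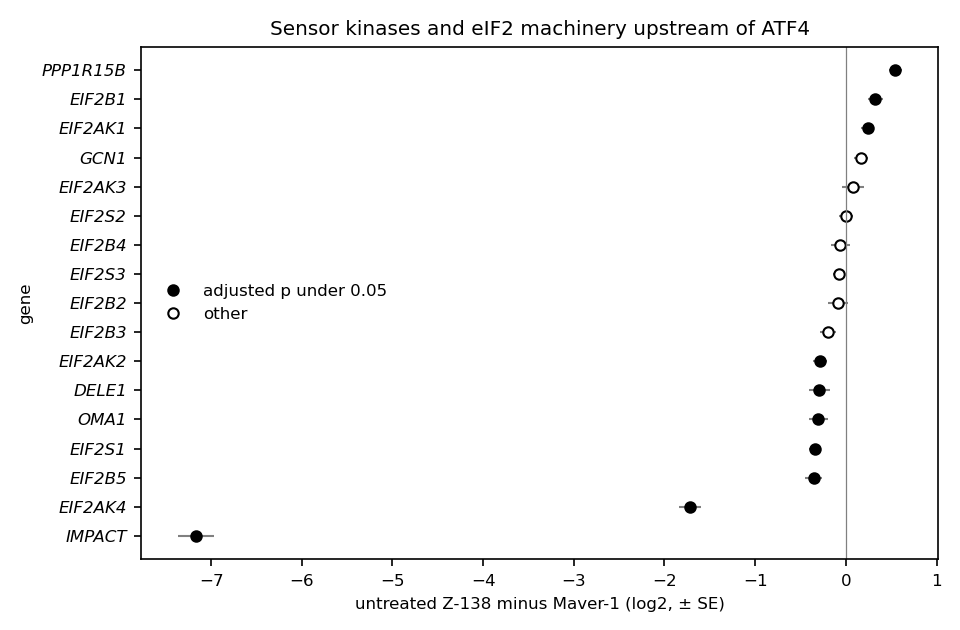
Untreated Z-138 minus Maver-1 difference (log2, points, with the limma standard error as bars) of the 17 sensor kinases and eIF2 factors; filled points passed at an adjusted p under 0.05. IMPACT at -7.17 and EIF2AK4 at -1.72 lie to the left of the other 15, which sit between -0.355 and 0.547; IMPACT passed the filter only through Maver-1 and its position follows the pseudocount.

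Genes of the response outside the module were mixed. For each list below the shares over all genes were 25.5% higher and 34.8% lower in Z-138. Of 28 further ATF4 targets measured, 11 were higher and 9 lower in Z-138. The 4 with the smallest p were the lipoprotein receptor VLDLR at 4.115 ± 0.15 (adjusted p = 1.1e-10) and the death receptor TNFRSF10B at 0.91 ± 0.08 (adjusted p = 3.46e-07) on the higher side, the latter at 0.396 (adjusted p = 0.0792) with averaged probe sets. TXNIP, which binds thioredoxin, at -1.06 ± 0.09 (adjusted p = 3.28e-07) and SLC36A4, an amino acid carrier, at -1.39 ± 0.13 (adjusted p = 9.44e-07) were those on the lower side. VLDLR read 775.5, 863.1 and 834.6 in Z-138 and 46.6, 53.9 and 35.5 in Maver-1. The 12 other cytosolic tRNA synthetases gave 2 higher and 4 lower, with SARS1 at 0.52 and RARS1 at -0.755. Endoplasmic reticulum chaperone and unfolded protein response genes gave 6 higher and 7 lower of 18, with EDEM1 at 1.07 and XBP1 at -0.70. Stress in that compartment activates ATF4 through the kinase PERK. On the arrays with doxycycline SARS1 was at 0.188 (adjusted p = 0.39) and EDEM1 at 0.385 (adjusted p = 0.083), so neither passed there. So no list upstream or beside the module was higher throughout in either line.

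The second set of comparisons asked what doxycycline, and with it the hairpins, did to the module. No member passed in the 4 NIKsh cultures (limma, 0 of 35; 0.0433% of all genes), in the 2 NTC cultures (0 of 35; 0 genes in all) or in the difference between them (0 of 35; 0 genes in all). At an unadjusted p under 0.05 there were 2, 0 and 1 members, against 8.98%, 3.35% and 5.43% of all genes. Medians over the 35 members were -0.025 in NIKsh, 0.09 in NTC and -0.106 for the difference, and 0.007, 0.03 and -0.028 over all genes. No member moved at least 1.5-fold the same way in all 4 NIKsh cultures (0.0779% of genes higher, 0.191% lower).

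The members nearest to a shift in NIKsh cultures were small and opposite. DDIT4 changed by 0.26 and 0.13 in the Z-138 hairpin cultures and by 0.147 and 0.34 in the Maver-1 ones, for a mean of 0.22 ± 0.08 (limma adjusted p = 0.45). In NTC it was at -0.24 and 0.135, so NTC lay on both sides of 0. SLC7A11, the cystine importer that feeds glutathione synthesis, changed by -0.43, -0.415, -0.13 and -0.24 with knockdown hairpins (#1 then #2 of Z-138, then of Maver-1), with a mean of -0.305 ± 0.12 (adjusted p = 0.488). Its NTC values were -0.18 and 0.08. Same-sign changes in all 4 NIKsh cultures were seen in 6 members, 2 higher (DDIT4, ALDH1L2) and 4 lower (CEBPG, SLC7A11, SLC1A5, SLC1A4), where 9.95% and 8.29% of all genes did so. ALDH1L2 read at most 5.3 in Z-138, at the floor of the arrays, so its sign there carries no weight.

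Against NTC, DDIT3 was the 1 of 35 members with an unadjusted p under 0.05, on the higher side, where 5.43% of all genes had such a p. Its signal in Z-138 went from 298.9 to 227.5 in NTC, 249.7 to 382.1 in NIKsh#1 and 211.0 to 294.4 in NIKsh#2, and in Maver-1 from 247.3 to 222.8, 212.6 to 253.7 and 206.6 to 193.5. It was higher with doxycycline in 3 of 4 NIKsh cultures and lower in both NTC cultures, without passing the test. The NIKsh minus NTC difference was 0.58 ± 0.26 (limma adjusted p = 0.884). DDIT3 was the 1 of 35 members whose 4 NIKsh changes all lay above both NTC changes, against 7.12% of genes, so that pattern is no result about the module. On the lower side PPP1R15A, SESN2 and SLC1A5 had all 4 NIKsh changes below both NTC changes (6.45% of genes), with differences of -0.57 ± 0.31, -0.47 ± 0.34 and -0.54 ± 0.29 (adjusted p = 0.884 each). DDIT3 also had the smallest p between untreated constructs, at -0.31 ± 0.13 for NIKsh minus NTC with the line as a term (adjusted p = 0.989), and this value and the change share the untreated arrays. In that untreated comparison 0 of 35 members and 0 genes in all passed, with 1 member and 4.78% of all genes at an unadjusted p under 0.05. The members' median there was -0.106 with 29 of 35 negative, against 0.006 and 5569 of 11548 over all genes, and these untreated arrays enter the doxycycline changes of both construct types.

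The doxycycline effect was then taken per line. Over the 3 Z-138 cultures 1 of 35 members passed in limma, PSAT1, where 1.26% of all genes did (0.719% higher and 0.546% lower). At an unadjusted p under 0.05 there were 10 members against 21.4% of all genes. Over the 3 Maver-1 cultures 0 of 35 members and 0 genes in all passed, with 0 members and 2.14% of all genes at an unadjusted p under 0.05. The difference between the lines gave 0 members and 0 genes in all, with 8 members and 13.7% of all genes at an unadjusted p under 0.05. In NIKsh cultures alone, 0 members passed in Z-138 (2.14% of all genes), in Maver-1 (0 genes in all) or in their difference (0.121%, with 0.052% higher and 0.0693% lower), and 6, 2 and 3 had an unadjusted p under 0.05 (16.2%, 3.97% and 8.59% of all genes). Changes of 1 sign in all 3 Z-138 cultures were seen in 6 members on the higher side (19.7% of genes) and 5 on the lower side (15.3% of genes). ALDH1L2, at the floor of the arrays in Z-138, is among these 6. It is also among the 10 members of Z-138 and the 6 of the Z-138 NIKsh cultures with an unadjusted p under 0.05.

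Z-138 NIKsh#1 weighed on these counts. Without it 4 of 35 members passed in Z-138, SLC7A5, GARS1 and EPRS1 beside PSAT1, where 1033 of 11548 genes in all did. The line difference passed for GARS1 at 0.525 (limma adjusted p = 0.0403) and SLC7A5 at 0.62 (adjusted p = 0.0392), where 369 of 11548 genes in all passed. The Z-138 NIKsh effect without Z-138 NIKsh#1 is the change of NIKsh#2 alone, at -0.559 for PSAT1. Without Z-138 NIKsh#2 it is that of NIKsh#1 alone, at 1.331 for ALDH1L2, which lay at the floor of the arrays in Z-138. Leaving out either Maver-1 NIKsh culture kept the Z-138 NIKsh effects at -0.495 for PSAT1 and -0.296 for ATF5. Those fits have fewer arrays from which to take the spread, and more genes in all passed in them than in the full fits.

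PSAT1, the serine synthesis transaminase, fell in every Z-138 culture. Its signal went from 1139.1 to 819.1 in NTC, from 1046.1 to 774.6 in NIKsh#1 and from 857.0 to 580.9 in NIKsh#2. In Maver-1 it went from 1010.0 to 1060.5, 962.2 to 1048.5 and 874.9 to 821.4, so the lines overlapped without doxycycline, and with it every Z-138 culture was below every Maver-1 culture, by as little as 819.1 against 821.4. The mean change was -0.49 ± 0.09 in Z-138, a 1.40-fold fall (limma adjusted p = 0.0452), and 0.03 in Maver-1. The line difference was -0.52 ± 0.13 (adjusted p = 0.225). The change was -0.47 in NTC and -0.43 and -0.56 in NIKsh#1 and NIKsh#2. The call was at the edge, with adjusted p from 0.0258 to 0.218 over the alternatives and no call without Z-138 NIKsh#2 (0.218) or without any 1 of the Maver-1 cultures (0.0891 to 0.108). The ACTB ratio rose in the same 3 Z-138 cultures, and its part in the change was not tested.

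**Figure D3:**
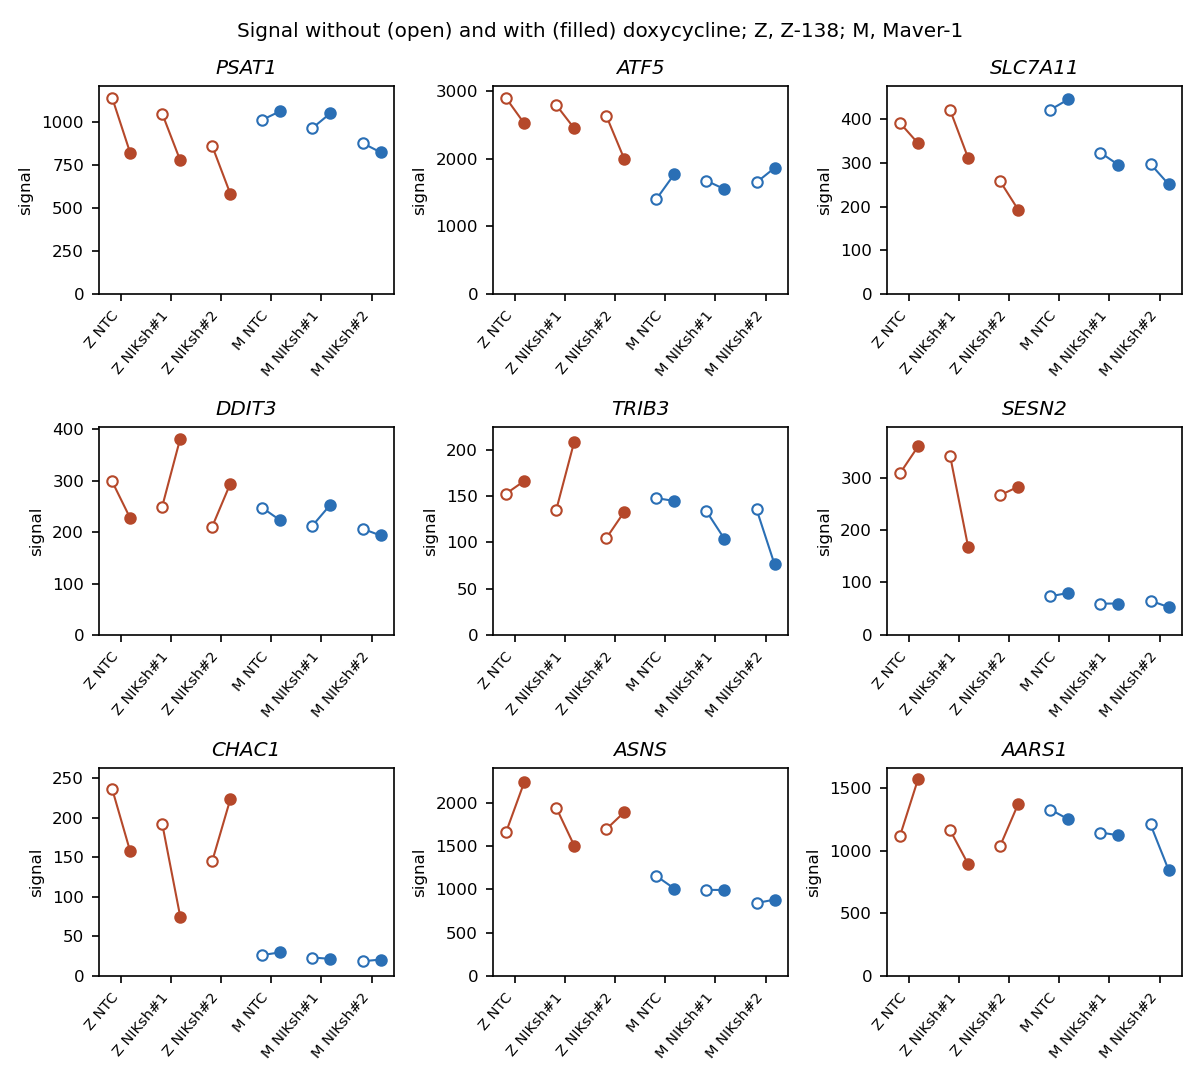
Signal of 9 members in each culture (axes from 0, array units), open points without and filled points with doxycycline, Z-138 in red and Maver-1 in blue. PSAT1, ATF5 and SLC7A11 go down in all 3 Z-138 cultures, while SESN2, ASNS and AARS1 go down in Z-138 NIKsh#1 and up in the other Z-138 cultures.

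The next members in Z-138 did not pass. ATF5 went from 2893.4 to 2522.1, 2792.0 to 2446.8 and 2632.9 to 1992.6, a mean of -0.26 ± 0.09 (adjusted p = 0.14), and was at 0.13 in Maver-1. SLC7A11 was at -0.34 ± 0.14 (adjusted p = 0.187) and CEBPG at -0.17 ± 0.10 (adjusted p = 0.347), both negative in 3 of 3 cultures. On the positive side ATF4 was at 0.195 ± 0.075 (adjusted p = 0.18), SHMT2 at 0.14 ± 0.05 (adjusted p = 0.174) and GARS1 at 0.24 ± 0.09 (adjusted p = 0.178), the latter in 2 of 3 cultures. ALDH1L2 was at 0.70 ± 0.24 (adjusted p = 0.153), on signals of at most 5.3 in Z-138, so that value rests on the floor of the arrays.

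TRIB3, SHMT2 and SLC7A1 were higher with doxycycline in all 3 Z-138 cultures and lower in all 3 Maver-1 cultures, as were 3.98% of all genes. TRIB3 went from 152.9 to 166.5, 135.1 to 209.1 and 104.6 to 133.3 in Z-138, and from 148.0 to 145.0, 133.8 to 103.8 and 136.0 to 76.3 in Maver-1. The ranges of the lines over 3 cultures overlapped both without and with doxycycline, and the line difference of 1.06 ± 0.31 over NIKsh cultures did not pass (adjusted p = 0.369). In Maver-1 NIKsh cultures TRIB3 was at -0.58 ± 0.22 (adjusted p = 0.998), and averaging its probe sets gave 0.005. Averaging probe sets also turned the Z-138 change of SHMT2 to -0.051 and of SLC7A1 to -0.601, so the direction of both belongs to the probe set chosen. DDIT4 in the Maver-1 NIKsh cultures was at 0.24 ± 0.095 (limma adjusted p = 0.998).

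**Figure D4:**
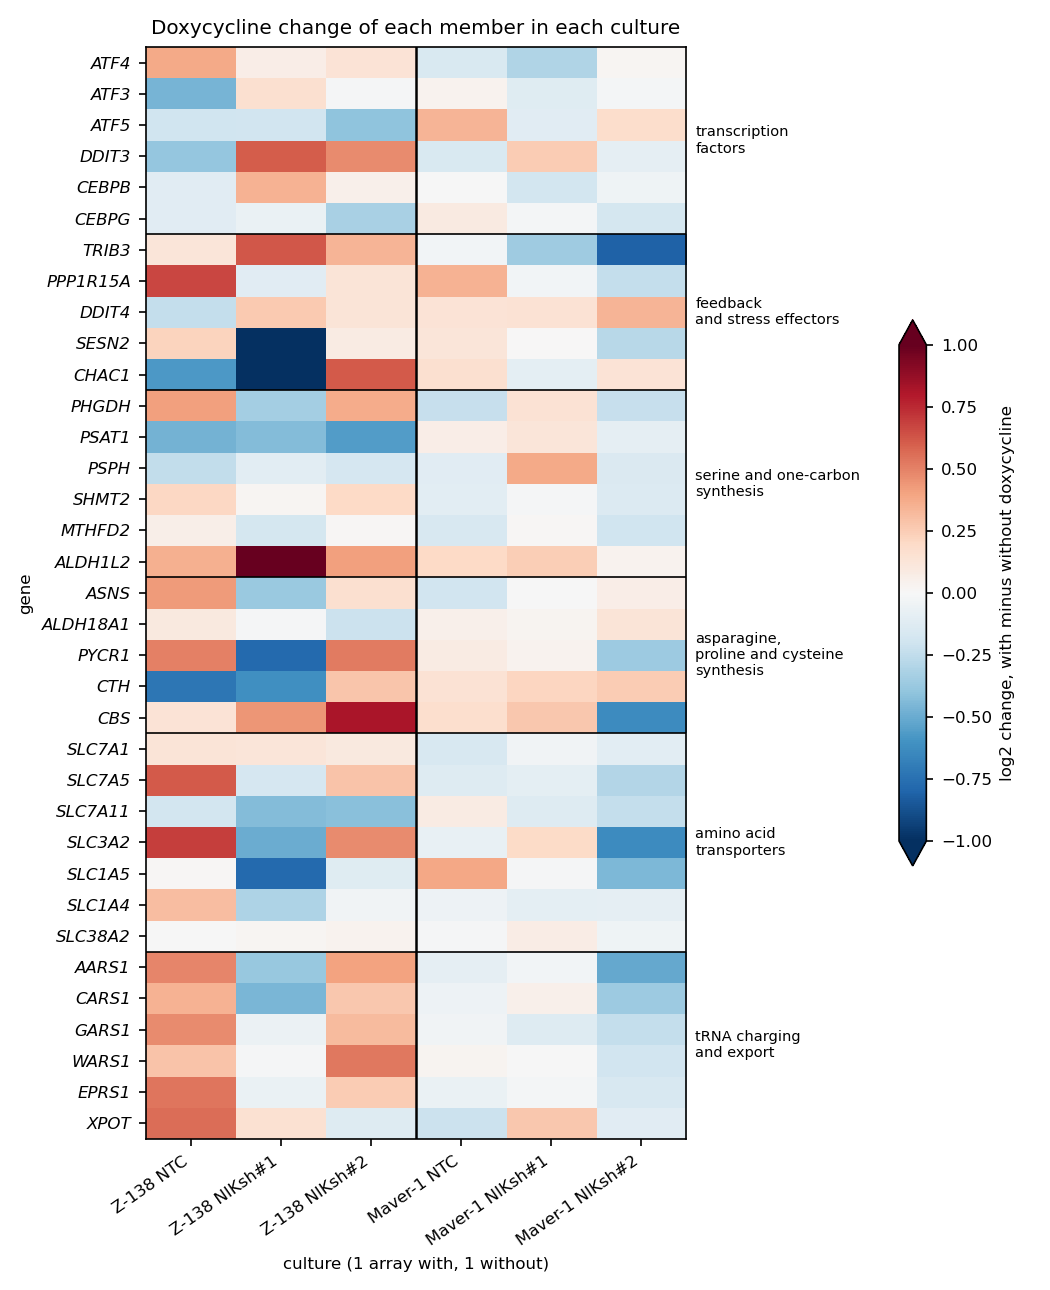
Change of each of the 35 measured members in each culture (log2, with minus without doxycycline; colours saturate at -1 and 1), grouped by role. Most tRNA charging genes are positive in Z-138 NTC and NIKsh#2 and negative in Z-138 NIKsh#1 and Maver-1 NIKsh#2, and the Maver-1 columns are paler.

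By hairpin the module had opposite medians in Z-138. The median over the 35 members was 0.14 in NTC, -0.108 with hairpin #1 and 0.14 with #2, with 23, 12 and 25 members positive. Over all genes those medians were 0.065, -0.014 and 0.07. In Maver-1 the members' medians were -0.011, -0.002 and -0.14 for NTC, NIKsh#1 and NIKsh#2, with 16, 16 and 8 positive, and -0.016, 0.011 and -0.03 over all genes. Changes of at least 1.5-fold were seen in 4, 8 and 2 members in the Z-138 cultures (24.6%, 14.5% and 19.9% of all genes) and in 0, 0 and 3 in the Maver-1 cultures (4.51%, 5.46% and 9.53% of all genes). The 8 members in Z-138 NIKsh#1 include ALDH1L2, at the floor of the arrays there. Each culture is a pair of arrays, so these differences between cultures have no test.

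A set of 13 members was positive in Z-138 NTC and NIKsh#2 and negative in Z-138 NIKsh#1, a sign pattern picked after the values were seen and held by 18.2% of all genes. They were ASNS, PYCR1, PHGDH, MTHFD2, SESN2, PPP1R15A, SLC7A5, SLC3A2 and the synthetases AARS1, CARS1, GARS1, WARS1 and EPRS1. ASNS went from 1662.1 to 2235.2 in NTC, 1945.5 to 1505.2 in NIKsh#1 and 1694.9 to 1892.6 in NIKsh#2, while in Maver-1 it went from 1153.9 to 1008.0, 994.1 to 992.5 and 841.9 to 881.3. AARS1, alanyl-tRNA synthetase, went from 1119.2 to 1571.3, 1161.3 to 890.8 and 1039.0 to 1373.5 in Z-138. SESN2 had its widest change in NIKsh#1, from 340.6 to 166.9, against 308.2 to 359.5 in NTC and 266.5 to 282.4 in NIKsh#2. CHAC1 was lower in NIKsh#1, from 192.6 to 75, but also in NTC, from 236.7 to 157.7, and higher in NIKsh#2, from 145.3 to 223.4. In Maver-1 CHAC1 stayed between 18.5 and 29.8 on all 6 arrays. ATF4 mRNA did not follow this pattern, at 0.38, 0.07 and 0.14 in the Z-138 cultures. The 3' to 5' ratios rose least in the same NIKsh#1 culture, GAPDH from 1.17 to 2.00 in NTC, 1.30 to 1.36 in NIKsh#1 and 1.15 to 1.83 in NIKsh#2, and ACTB from 2.33 to 6.34, 2.86 to 4.62 and 2.92 to 5.09. Their part in it was not tested.

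By role, the tRNA charging genes mostly shared 1 sign within a culture. Their Z-138 medians were 0.48 in NTC, -0.06 with #1 and 0.295 with #2, with 6, 1 and 5 of 6 positive, and -0.06, -0.009 and -0.21 in Maver-1, with 1, 2 and 0 of 6 positive. Over all genes 55.7%, 47.9% and 57.7% were positive in Z-138 and 46.0%, 52.0% and 44.9% in Maver-1. The 12 other synthetases had 10, 6 and 9 positive in Z-138 and 3, 8 and 0 in Maver-1. The amino acid transporters had medians of 0.13, -0.31 and 0.03 in Z-138 and of -0.05, -0.04 and -0.24 in Maver-1, where all 7 were negative in NIKsh#2. Asparagine, proline and cysteine enzymes were at 0.14, -0.37 and 0.28 in Z-138. The transcription factors had their highest median in NIKsh#1 there, with -0.16 in NTC, 0.11 in NIKsh#1 and 0.02 in NIKsh#2. No gene of these lists other than PSAT1 passed in any doxycycline comparison.

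Outside the module, 1 of 28 further ATF4 targets passed in the Z-138 NIKsh cultures, the small bZIP factor MAFF. It went from 15.4 to 39.6 in NIKsh#1 and from 18.2 to 61.0 in NIKsh#2, against 21.0 to 20.0 in NTC, and stayed between 16.1 and 22.7 in Maver-1. MAP3K14 fell least in that NIKsh#2 culture, at -0.075. The MAFF change over both hairpins was 1.40 ± 0.28 (limma adjusted p = 0.0399). But it did not pass without the filter (0.0864), without the intensity trend (0.0594), with a pseudocount of 1 (0.0517) or without the replicate block (0.0507). Without Z-138 NIKsh#2 the value is the change of NIKsh#1 alone, at 1.211. In the same cultures 2 of 4 measured fibroblast, epithelial and endothelial markers were lower, PECAM1 at -1.77 (adjusted p = 0.0237) and COL1A1 at -1.32 (adjusted p = 0.0343), and their part in the result was not tested. VLDLR was higher in every NIKsh culture, from 863.1 to 1544.9 and 834.6 to 1363.6 in Z-138 and from 53.9 to 82.1 and 35.5 to 51.7 in Maver-1, and also in both NTC cultures, from 775.5 to 903.6 and 46.6 to 51.3. The NIKsh change did not pass in either line (0.77 ± 0.18, adjusted p = 0.0688, and 0.54 ± 0.18, adjusted p = 0.998). RARS1, arginyl-tRNA synthetase, lay opposite to most synthetases in Z-138, at -0.82 ± 0.17 over 3 cultures (adjusted p = 0.0528). None of the 17 sensor and eIF2 genes, the 12 other synthetases or the 18 endoplasmic reticulum genes passed in a doxycycline comparison per line or per construct type.

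Different probe sets of a member often disagreed. In all, 35 further probe sets of 21 member genes were above the signal filter, and 28 of them lay below the chosen probe set in the Z-138 doxycycline change, 13 with the opposite sign. That is 80%, against 63% of 11275 such probe sets of all genes. Their median was -0.20, against -0.01 for the chosen ones. For the untreated line difference 7 of the 35, or 20%, lay below the chosen probe set, against 40.3% over all genes, and the medians were 0.58 and 0.06. The shifts thus ran the same way as the ACTB ratio, which was low in untreated Z-138 and rose there with doxycycline, and its part in them was not tested.

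**Figure D5:**
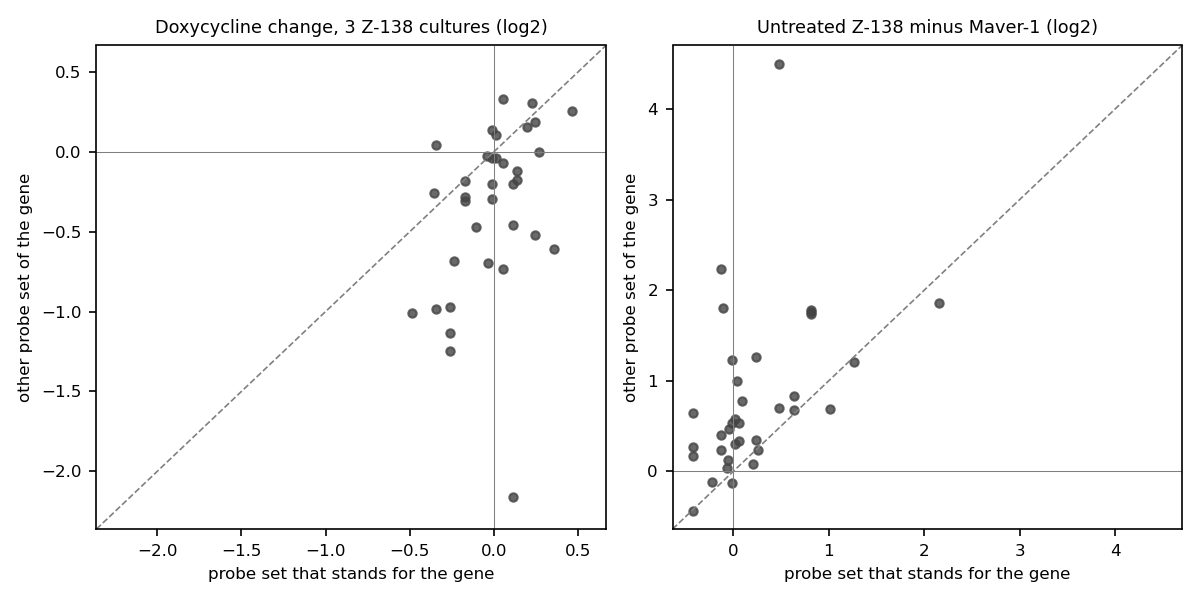
Each point is 1 of 35 further probe sets, plotted against the probe set that stands for the same gene (log2, dashed line of equality), for the Z-138 doxycycline change on the left and the untreated line difference on the right. Points lie mostly below the line on the left (28 of 35) and above it on the right.

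For some members further probe sets had the same sign and a larger size, and for others the opposite sign. All 4 ATF5 probe sets were lower in Z-138 with doxycycline, at -0.26, -0.97, -1.24 and -1.13, and all were higher in untreated Z-138, from 0.82 to 1.78. PSAT1 was lower on both of its probe sets, at -0.49 and -1.01, and SLC7A11 at -0.34 and -0.99, with 0.045 on one of low signal. SLC7A1 was at 0.12 on the chosen probe set and at -0.46, -2.16 and -0.20 on the others above the filter. EPRS1 gave 0.24, 0.19 and -0.52. SESN2 and ATF3 kept their higher level in untreated Z-138 on a further probe set, at 1.86 and 1.21, and PSPH gave 0.48 on one probe set and 4.50 on another, which read 1877.9 in untreated Z-138 and 79.6 in untreated Maver-1. ATF4, CHAC1, DDIT3, DDIT4, GARS1, PYCR1, AARS1, SLC7A5, SLC3A2, CEBPB, PHGDH, SLC1A5 and NUPR1 had no further single-symbol probe set to compare.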

How the data were processed

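The members and gene lists were chosen with earlier results of these data known. The authors deposited a linear intensity (signal) per probe set from MAS5, per the submitters' processing notes; the mean without the lowest and highest 2% was 150.02 on each of the 12 arrays. RNA was amplified and labelled with biotin, per the labels' protocols. Of 54675 probe sets 41097 had 1 symbol, 1801 several and 11777 none in the annotation used here. Signals were taken as log2(signal + 3), so fold changes of dim genes are understated, and genes with a mean signal under 12.55, the median of the array medians (10.6 to 14.1), were left out. Tests used limma 3.58.1 (R 4.3.3), two-sided, with an intensity trend and Benjamini-Hochberg adjustment over 11548 genes at 0.05. The code was tested on simulated data first. Culture was a fixed block in the doxycycline comparisons. The untreated comparisons had 1 array per culture and no block, with the line as a term for NIKsh minus NTC. Arrays with and without doxycycline were paired by culture because, per the labels' protocols, cells of a construct were split between media; the correlation of their deviations was -0.038 (Z-138) and 0.202 (Maver-1). Standard errors are limma's. Named with full statistics were members that passed and the 4 members with the smallest p per direction, and up to 4 genes per other list. Arrays give no depth, and their number limits precision. Sequences are RefSeq's; 6 members had no promoter entry (PSPH, SHMT2, ALDH1L2, PYCR1, SLC7A11, NUPR1). Alternatives changed the pseudocount (1 or 16), normalization, filter, probe set rule, variance trend and block, or left out a culture.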

Additional observations from a re-analysis of the deposited data

Results flagged for a closer look

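Among the 4 NIKsh changes of each of the 35 members, 2 members had 1 culture far from the rest by Dixon's test, where chance marks about 1 in 20 groups. PSPH changed by 0.378 in Maver-1 NIKsh#1, against -0.165 to -0.108 in the other 3. CTH changed by -0.612 in Z-138 NIKsh#1, against 0.214 to 0.278.

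The doxycycline change had opposite signs in every culture of the lines for 3 members. The Z-138 minus Maver-1 difference was 0.759 for TRIB3, 0.226 for SHMT2 and 0.217 for SLC7A1 (limma adjusted p = 0.303, 0.288 and 0.271), so the difference itself did not pass for any of them. With averaged probe sets TRIB3 was at -0.485 and SLC7A1 at -0.86.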

How the results depend on the processing

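The number of arrays limits every comparison here. Counts of calls were less stable than directions. Counts of all genes called in the 4 NIKsh cultures, 5 as reported, were 3 with no filter, averaged probe sets or no intensity trend, 2 with the 75th percentile filter, 16 with no replicate block and 13 with a random replicate block. In the Z-138 NIKsh cultures, 247 as reported, they were 164 with no filter, 155 with the 75th percentile filter, 126 with averaged probe sets and 23 with no intensity trend, and for the line difference of NIKsh effects, 14 as reported, 9, 8, 2 and 0 in that order. Over the 3 Z-138 cultures, 146 as reported, they were 22 with quantile normalization, 0 with no filter, 15 with averaged probe sets and 0 with no intensity trend. The 1 member called there, PSAT1, was 0 under quantile normalization, no filter, averaged probe sets, no intensity trend, no replicate block and random replicate block; the block changed no other call of a member. Leaving out a culture, genes called ranged from 0 to 5 (NIKsh), 248 to 918 (Z-138 NIKsh), 0 to 42 (Maver-1 NIKsh), 9 to 423 (NIKsh line difference), 0 to 1033 (Z-138), 0 to 369 (line difference) and 0 to 108 (untreated NIKsh minus NTC). Members called ranged from 0 to 2 in Z-138 NIKsh, 0 to 4 in Z-138 and 0 to 2 in the line difference; the highest counts came without Z-138 NIKsh#1 in Z-138 and in the line difference, and the counts of all genes were highest without it in every comparison named here other than the NIKsh, Maver-1 NIKsh (without Z-138 NIKsh#2) and untreated (without Maver-1 NTC) ones. In the NIKsh fits per line, leaving out a NIKsh culture left its line with 1. The counts for that line then had no replicate behind them. The members' median ranged from -0.068 to 0.219 for the NIKsh line difference, -0.095 to 0.026 in Maver-1 and 0.035 to 0.218 for the line difference, which was 0.174 as reported and 0.037 with averaged probe sets. Between the lines 6956 genes were called untreated, and 4194 on the arrays with doxycycline. The members' untreated median was 0.167 as reported and 0.312 with averaged probe sets, and it was 0.417 on the arrays with doxycycline. Signs turned with averaged probe sets for TRIB3 in Maver-1 NIKsh (0.005), in Z-138 for EPRS1 (-0.03), SHMT2 (-0.051) and SLC7A1 (-0.601), for the line difference of TRIB3 (-0.485) and SLC7A1 (-0.86), and untreated for SLC1A4 (0.047), SLC7A1 (0.592) and EIF2S1 (0.079); untreated SLC7A1 was 0.083 on the arrays with doxycycline. The cause of these changes was not tested. No member was 2-fold apart the same way in all cultures of a line.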
